A study of Mus musculus with 17 samples.

Results

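The prostanoid receptor genes examined here are the 7 genes for the receptors of prostacyclin (Ptgir), prostaglandin E2 (Ptger1, Ptger2, Ptger3 and Ptger4), thromboxane (Tbxa2r) and prostaglandin F (Ptgfr). They were chosen by symbol from the 21640 genes of the count table, and all 7 are listed there. The 4 groups were 6 libraries of arteriolar smooth muscle cells (aSMCs) sorted by EGFP from SMACreER:Ai47 mice (Ai47 aSMCs), 2 libraries of aSMCs sorted by tdTomato from SMACreER:Ai14 mice (Ai14 aSMCs), 6 libraries of cortex homogenate from mice labelled wild type (cortex) and 3 libraries of tdTomato-positive astrocytes sorted from hGFAPCreER:Ai14 mice (astrocytes). In the SMACreER lines a smooth muscle actin promoter drives a tamoxifen-dependent Cre and in the hGFAPCreER line a GFAP promoter drives it, so each sort took the cells that had switched on the reporter. The SMACreER:Ai47 mice were adults treated with tamoxifen about a month earlier, and CD31 and CD45 were used to remove endothelial and immune cells from that sort; the study's methods give tamoxifen in adulthood at least a month ahead for in vivo work in general, RNA-seq included, but also describe sorting of newborn SMACreER:Ai14 cells for culture, and neither is tied to the Ai14 or astrocyte libraries. The study's results describe the cortex as part of the tissue dissociated for sorting, which differs from the wild-type label. A figure legend of the study names SMACreER:Ai14 mice as the source of its 6 sorted aSMC samples, where its methods name SMACreER:Ai47. Groups here follow the sample labels. The study gives mice as the replicates of the sorted aSMCs and cortex, in the number of the Ai47 and cortex libraries, whereas the Ai14 and astrocyte libraries could not be tied to a number of mice, and their spread may be technical.

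Prostanoids are made from arachidonic acid by the cyclooxygenases and by a synthase for each product, and they act close to where they are made on G protein-coupled receptors. The prostacyclin receptor IP (Ptgir) and the PGE2 receptors EP2 (Ptger2) and EP4 (Ptger4) couple to Gs, which raises cyclic AMP and relaxes vascular smooth muscle, whereas EP3 (Ptger3) couples mainly to Gi. The thromboxane receptor TP (Tbxa2r), the prostaglandin F receptor FP (Ptgfr) and EP1 (Ptger1) raise calcium through Gq, and TP also signals to RhoA, so these receptors are known as constrictors of smooth muscle.

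Library totals were 41499087 to 53643624 counts in Ai47 aSMCs, 14870507 and 14979228 in Ai14 aSMCs, 5397905 to 7288036 in cortex and 4537137 to 7390630 in astrocytes. Mitochondrial counts made up 0.215% to 0.559%, 16.8% and 17.6%, 35.7% to 72.95% and 10.7% to 12.5% of these totals. This share therefore differed between the groups in every comparison, and its part in the results was not tested. Levels are CPM, each gene's counts scaled to a common library size after adjustment by TMM, a factor that allows for a few genes taking many of the counts, and levels of different genes were compared as CPM per kilobase of exon. Smooth muscle markers summed to 6063 to 7290 CPM in Ai47 aSMCs and 9405 to 10130 CPM in Ai14 aSMCs, against 40.4 to 161 CPM in cortex. Sums of pericyte and fibroblast markers were also high in the aSMC sorts. Pericyte markers were led by Rgs5, which smooth muscle cells also express. They summed to 2518 to 5699 CPM in Ai47 aSMCs, 6733 to 9901 CPM in Ai14 aSMCs and 239 to 697.5 CPM in cortex. Abcc9 of that list went the other way in Ai47 aSMCs, with 1.24 to 3.14 CPM against 1.27 to 37.9 CPM in cortex. Fibroblast markers summed to 1531 to 2365, 78.7 to 122 and 14.6 to 37.9 CPM in these groups. In Ai47 aSMCs Col1a1 had a mean of 1739 CPM and Pdgfra was at 0. Endothelial markers summed to 93.5 to 203, 276 to 305 and 292 to 1058 CPM, so their sum was not raised in the aSMC sorts. Cldn5 of that list went the other way in Ai47 aSMCs, with 21.6 to 46.6 CPM against 6.20 to 27.6 CPM in cortex. In astrocytes the endothelial sum was 513 to 1256 CPM, of which Slc2a1 had 490 to 1214 CPM. Neural markers were higher in Ai14 than in Ai47 aSMCs. In Ai47 aSMCs, Ai14 aSMCs and cortex, neuron markers summed to 0.202 to 1.82, 73.0 to 93.3 and 2148 to 3598 CPM. Astrocyte markers summed to 6.33 to 22.7, 148 to 240 and 3309 to 18150 CPM. Oligodendrocyte markers summed to 1.53 to 2.45, 129 to 169 and 2462 to 8979 CPM. Of these lists Aldh1l1, Cldn11 and Gad1 had lower means in Ai14 than in Ai47 aSMCs. The part of these cell types in the levels of the receptor and pathway genes was not tested. The astrocyte libraries went partly against their label: of 7 astrocyte markers Aqp4 and Gfap had higher mean levels than in cortex, Slc1a2, Slc1a3 and Aldoc had lower ones, Gjb6 had no counts, Aldh1l1 had 58.35 CPM in replicate 2 but 0 and 0.4548 CPM in the others against a cortex mean of 14.0 CPM, and the sum was 1217 CPM against 10130 CPM in cortex. A count of 0 over a group allows up to 0.0213 CPM in Ai47 aSMCs, 0.0456 CPM in Ai14 aSMCs, 0.0689 CPM in cortex and 0.0782 CPM in astrocytes, from 3 counts and for counting error only.

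Ptgir was the most abundant receptor gene in Ai47 aSMCs, and Tbxa2r accompanied it in Ai14 aSMCs. The sequence before the start of each of these genes is shown because they were the 2 most abundant members per kilobase of exon in both aSMC groups. Both runs hold 250 bases on the plus strand of GRCm38.p6, from RefSeq, which had such a sequence for 6 of the 7 genes (all but Ptger1). They are chr7:16906240-16906489 for Ptgir and chr10:81328018-81328267 for Tbxa2r, before the earlier of its annotated starts, and capitals mark the GC box GGGCGG, searched on both strands.
Ptgir: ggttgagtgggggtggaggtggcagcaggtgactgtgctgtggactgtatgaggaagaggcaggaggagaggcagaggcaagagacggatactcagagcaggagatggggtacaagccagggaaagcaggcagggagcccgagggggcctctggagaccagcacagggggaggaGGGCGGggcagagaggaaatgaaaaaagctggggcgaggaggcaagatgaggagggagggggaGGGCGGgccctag
Tbxa2r: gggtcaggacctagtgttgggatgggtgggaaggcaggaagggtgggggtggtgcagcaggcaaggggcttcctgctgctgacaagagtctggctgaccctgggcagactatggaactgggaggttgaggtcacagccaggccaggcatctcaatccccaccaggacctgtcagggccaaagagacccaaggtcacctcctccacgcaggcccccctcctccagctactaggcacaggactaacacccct
The Ptgir run holds 2 GC boxes and the Tbxa2r run none, the runs of Ptger4, Ptger3, Ptgfr and Ptger2 hold 4, 3, 1 and 0, so that the number did not follow the level in Ai47 aSMCs, and 32.74% of 32851 RefSeq promoters of this length held at least 1. The CArG box, the serum response factor motif of many smooth muscle genes, was in none of the runs of the 6 genes and in 1.467% of all promoters.

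Ptgir (ENSMUSG00000043017.9, chr7:16906490-16910905, plus strand, GRCm38) encodes IP, the receptor through which prostacyclin relaxes smooth muscle. In the 6 libraries of Ai47 aSMCs its level had a lowest value of 1.52, a median of 14.7 and a highest value of 26.2 CPM, from 29 to 560 counts. The Ai14 libraries had 6.54 and 6.46 CPM (215 and 213 counts). In cortex the lowest value was 0, the median 0.0989 and the highest 2.84 CPM, and the 3 astrocyte libraries had no count. Every aSMC library thus held Ptgir reads, the Ai14 libraries lay within the range of the Ai47 libraries, and cortex overlapped with Ai47 aSMCs where its replicate 5 stood above Ai47 replicate 1.
The Ai47 mean of 15.2 ± 8.70 CPM was 24.9 times the cortex mean of 0.613 ± 1.12 CPM (SD, n = 6 each), and 91.2 times without cortex replicate 5. Ptgir was higher in Ai47 aSMCs by a log2 fold change of 4.75 (SE 1.17, edgeR adjusted p = 0.00225). It was 1 of the 2 members that passed the filter on low counts in this comparison, in which 58.6% of 11548 genes passed, 33.6% higher and 25% lower in Ai47 aSMCs. Exact two-sided permutation of the 12 libraries, on log2(CPM + 0.5), gave p = 0.00433, while the 5 members that did not pass the filter had exact p-values of 0.338 (Ptgfr), 0.662 (Ptger1), 1 (Ptger2), 0.424 (Ptger3) and 0.470 (Ptger4), among 42 such tests over all comparisons, with no adjustment. With the 6 Ai47 columns counted as 1 library the adjusted p rose to 0.0695. Less RNA of a gene in cortex and fewer cells that express it cannot be told apart in bulk samples, here or in the comparisons that follow.
Cortex replicate 5, which gave 77.3% of the Ptgir signal of the cortex group, also had the highest sum of smooth muscle markers in cortex. That sum was 161 CPM, against 40.4 to 141 CPM in the other cortex libraries. Cortex replicate 1, with 141 CPM, had no Ptgir count. The part of these cells in the result was not tested.

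The other Gs-coupled members were low. Ptger4 (ENSMUSG00000039942.15, chr15:5206661-5244187, minus strand) encodes EP4, a dilator receptor for PGE2. In Ai47 aSMCs its lowest value was 0, its median 0.0446 and its highest 9.45 CPM, and 233 of the group's 236 counts came from replicate 3. The Ai14 libraries had 0.670 and 0.636 CPM, cortex ranged from 0 to 6.72 CPM with a median of 0.963, and the astrocyte libraries had 0.187, 0 and 0 CPM.
The Ai47 mean of 1.60 ± 3.85 CPM (SD, n = 6) therefore rested on 1 library and was 0.0292 CPM without it. Both Ai14 libraries stood above the other 5 Ai47 libraries and inside the range of cortex. Ptger4 did not pass the test in any of the 5 comparisons in which it was tested, and against cortex the exact two-sided permutation p was 0.470 for Ai47 aSMCs.
Cortex replicate 4, with the highest Ptger4 level of that group, also had the highest sum of microglia and macrophage markers. That sum was 1247 CPM, against 115 to 915 CPM in the other cortex libraries. Cortex replicates 5 and 6, however, had the next sums, 915 and 724 CPM, but no Ptger4 count. Ai47 replicate 3 had 0.730 CPM of these markers. Their part in the Ptger4 levels was not tested. Ptger4 shares 82 exon bases with Ttc33 on the opposite strand and 1015 with a pseudogene, Gm15937, and the sources used here do not give the strand setting of the counting.
Ptger2 (ENSMUSG00000037759.6, chr14:44988195-45003820, plus strand) encodes EP2, the other Gs-coupled PGE2 receptor. It had 4 counts in Ai47 replicate 4, 1 count in Ai14 replicate 7 and none in the other 15 libraries. It passed no filter on low counts, and EP2 transcripts were near or below the limit of detection in all 4 groups at this depth.

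Ptger3 (ENSMUSG00000040016.16, chr3:157566892-157645888, plus strand) encodes EP3, which lowers cyclic AMP. The Ai14 libraries had 3.74 and 1.94 CPM, from 123 and 64 counts. In Ai47 aSMCs the lowest value was 0, the median 0.0184 and the highest 0.255 CPM, with 9 counts in all 6 libraries. Cortex ranged from 0 to 0.478 CPM with a median of 0.0945, and the astrocyte libraries had no count. Both Ai14 libraries thus lay above every library of the other 3 groups.
The means were 2.84 ± 1.28 CPM (SD, n = 2) in Ai14 aSMCs and 0.0581 ± 0.0992 CPM (SD, n = 6) in Ai47 aSMCs, a ratio of 48.9. Replicate 6 held 7 of the 9 Ai47 counts, and the Ai47 mean without it, 0.0188 CPM, was below the limit of 3 counts. Without that library the ratio would be larger, but its size could not be given. Ptger3 was lower in Ai47 than in Ai14 aSMCs by a log2 fold change of -5.41 (SE 1.49, edgeR adjusted p = 0.0122) and was the single member of 6 tested that passed in this comparison, in which 25.6% of 14927 genes passed, 9.55% higher and 16% lower in Ai47 aSMCs. Ptger3 passed the low-count filter of this fit only through the 2 Ai14 libraries, where it is high, so its call is not independent of that filter. The exact two-sided permutation p was 0.0357, the smallest that 6 libraries against 2 allow. The adjusted p was 0.146 without Ai14 replicate 7, 0.0704 without Ai14 replicate 8, 0.0904 by DESeq2 and 0.603 with the Ai47 columns as 1 library. The reporter line, the depth and the share of mitochondrial counts (0.215% to 0.559% in Ai47 against 16.8% and 17.6% in Ai14 aSMCs) all differ between these groups. So do the sums of neuron, astrocyte and oligodendrocyte markers, higher in Ai14 aSMCs, and removal of cells by CD31 and CD45 is tied to the Ai47 sort only. These differences cannot be told apart.
Against cortex, Ptger3 was 19.1 times as abundant in Ai14 aSMCs by the means, with a log2 fold change of 4.05 (SE 1.49, adjusted p = 0.125), and the exact permutation p was 0.0357, again the smallest possible.

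Tbxa2r (ENSMUSG00000034881.8, chr10:81328731-81335172, plus strand) encodes TP, the receptor of the platelet product thromboxane and a strong constrictor of arteries. Its levels were 3.47 and 6.24 CPM in the Ai14 libraries. In Ai47 aSMCs the lowest value was 0.122, the median 1.12 and the highest 2.95 CPM. In cortex the lowest value was 0, the median 0.368 and the highest 5.48 CPM, and none of the 3 astrocyte libraries had a count. All 8 aSMC libraries held Tbxa2r reads, and cortex replicate 6 stood within the range of the Ai14 libraries.
Tbxa2r did not pass the test between Ai47 aSMCs and cortex, with means of 1.43 ± 1.06 and 1.19 ± 2.13 CPM (SD, n = 6 each) and a log2 fold change of 0.32 (SE 1.06, adjusted p = 0.816), which became -0.80 with library totals alone. In Ai14 aSMCs the mean of 4.86 ± 1.96 CPM (SD, n = 2) was 4.09 times that of cortex, or 14.7 times without cortex replicate 6 (log2 fold change 2.03, SE 1.48, adjusted p = 0.490) and 3.40 times that of Ai47 aSMCs (Ai47 against Ai14 log2 fold change -1.76, SE 1.47, adjusted p = 0.417).
Without cortex replicate 6, which held 76.9% of the group's signal, the cortex mean was 0.330 CPM, and the adjusted p of Ai47 aSMCs against cortex was 0.0736 with a log2 fold change of 2.23. That replicate also had the highest sum of the 5 platelet and megakaryocyte markers of cortex, 18.9 CPM against 0.775 to 3.96 CPM in the other 5 libraries, but 18.71 CPM of it was Ppbp, while Pf4, Itga2b and Gp9 had no count there and Gp1ba had 1. Ai47 aSMCs had 0.0924 CPM of these markers on average, with Pf4 and Ppbp at 0. The part of those cells in the cortex level was not tested.

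Ptgfr (ENSMUSG00000028036.6, chr3:151796502-151837630, minus strand) encodes FP, which couples to Gq. It had 0.670 and 1.94 CPM in the Ai14 libraries. Ai47 aSMCs had a lowest value of 0.109, a median of 0.159 and a highest value of 0.171 CPM. Cortex had 0, 0.282 and 0.637 CPM as lowest, median and highest values, and the astrocytes had no count. Both Ai14 libraries were above all libraries of the other groups.
The raw counts of Ptgfr in the 6 Ai47 columns were all 3 or 4, a variance of 0.08 times the mean, and those of Ptgdr were 3 in all 6. Over the 12275 genes with a mean count of at least 10, 130 had counts within 5% of the mean in all 6 Ai47 columns, where 0 of 11212 did in cortex. The SD of Ptgfr over these columns was 0.0278 CPM. The Ai47 columns may therefore not be independent libraries, in which case errors and p-values with n = 6 are too small. For that reason results of the members and counts of all genes called are also given with the columns as 1 library. Values of the pathway genes, their counts by list and the shares of all genes beside them are given with n = 6 only.
The Ai14 mean of 1.30 ± 0.898 CPM (SD, n = 2) was 8.98 times that of Ai47 aSMCs, or 4.61 times without Ai14 replicate 8 (Ai47 against Ai14 log2 fold change -3.11, SE 1.16, adjusted p = 0.0553) and 4.73 times that of cortex, or 2.43 times without that replicate (log2 fold change 2.12, SE 1.19, adjusted p = 0.336). With only the libraries of the aSMC groups in the fit, the first of these passed, at an adjusted p of 0.0028.

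Ptger1 (ENSMUSG00000019464.6, chr8:83666678-83672753, plus strand) encodes EP1, a Gq-coupled PGE2 receptor. It had 2.95 and 2.91 CPM in the Ai14 libraries. Ai47 aSMCs had a lowest value of 0.0368, a median of 0.0465 and a highest value of 1.82 CPM, the last in replicate 6. Cortex had 0, 0.119 and 4.12 CPM as lowest, median and highest values, and the astrocyte libraries had 0, 0.381 and 0.960 CPM. Ptger1 was the only member with reads in 2 of the 3 astrocyte libraries, and it passed the test in none of the 5 comparisons in which it was tested.
Without the strand setting of the counting, the level of EP1 transcripts is uncertain.

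**Figure D1:**
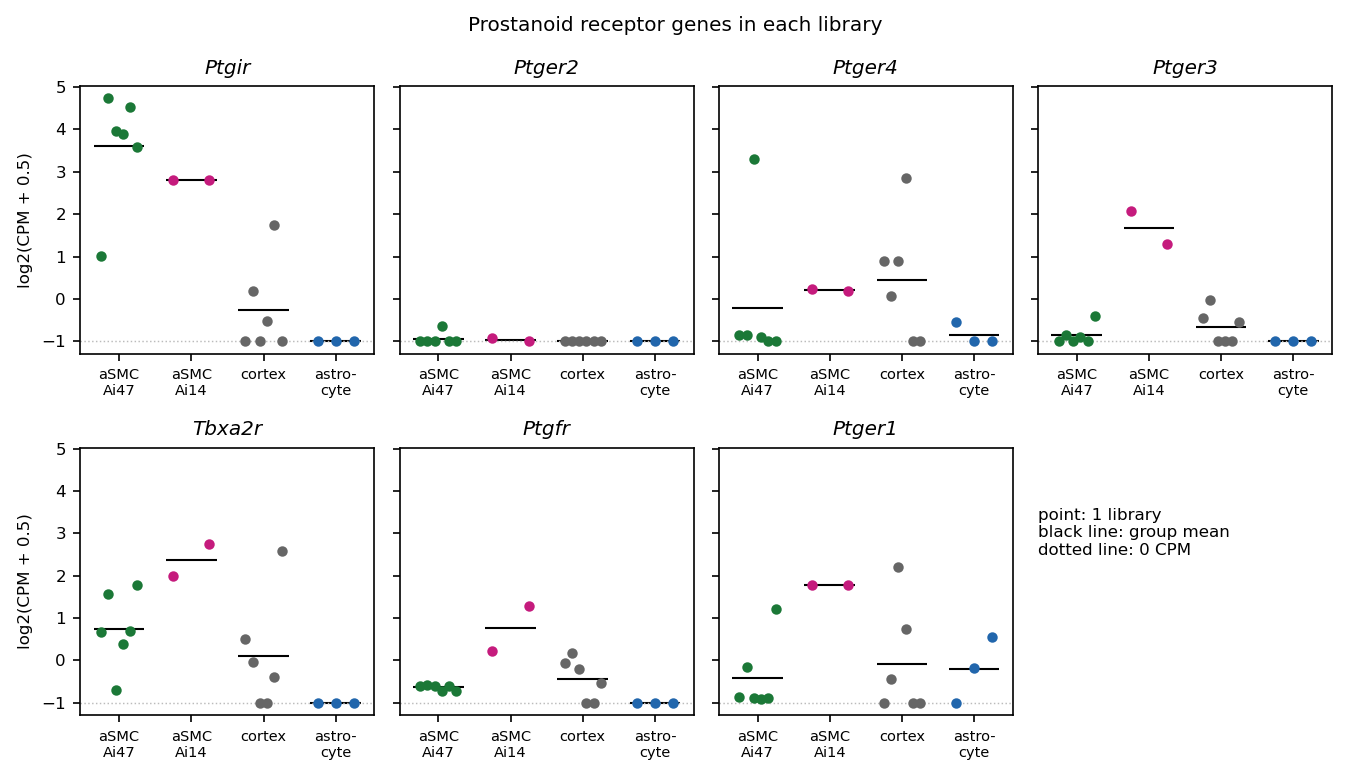
Levels of the 7 prostanoid receptor genes as log2(CPM + 0.5), with 1 point per library, a black line at the group mean and a dotted line at 0 CPM. Ptgir is highest in Ai47 aSMCs, Ptger3 and Ptgfr are highest in both Ai14 libraries, and the astrocyte libraries lie at or near 0 CPM for all members but Ptger1.

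Set against each other within a group, the receptors had a different order in the aSMC groups. Per kilobase of exon, Ptgir stood first in Ai47 aSMCs at 4.57 ± 2.61 CPM per kb (SD, n = 6), followed by Tbxa2r at 0.744 ± 0.553, while Ptger4, Ptger1, Ptgfr, Ptger3 and Ptger2 had means from 0.241 down to 0.00473. In Ai14 aSMCs Tbxa2r came first by the mean, at 2.53 ± 1.02 CPM per kb (SD, n = 2) and Ptgir second at 1.95 ± 0.0186, a difference within the spread of Tbxa2r. Ptger1 at 0.537 and Ptger3 at 0.50 CPM per kb did not differ beyond the spread of Ptger3, and with the longest transcript as length Ptger3 stood above Ptger1. In cortex the means of Tbxa2r, Ptger4, Ptgir and Ptger1 lay between 0.169 and 0.619 CPM per kb, each with an SD larger than itself.
Summed over the 7 genes, the level was 18.9 ± 9.44 CPM (SD, n = 6) in Ai47 aSMCs, 19.1 ± 1.45 CPM (SD, n = 2) in Ai14 aSMCs, 4.82 ± 2.13 CPM (SD, n = 6) in cortex and 0.509 ± 0.402 CPM (SD, n = 3) in astrocytes. With TMM the 2 aSMC groups thus had sums that differed by less than their spread, with different make-up. With library totals alone the sums were 8.97 ± 4.08 CPM in Ai47 and 42.2 ± 3.11 CPM in Ai14 aSMCs, so which group has more receptor RNA depended on the scaling. Ptgir gave 52.7% to 94.4% of the sum in each Ai47 library but 36.2% and 32.1% in the Ai14 libraries, where Tbxa2r gave 19.2% and 31.0%. Ai47 replicate 1 stood apart with a sum of 2.88 CPM, against 15.4 to 29.4 CPM in the other 5 libraries of that group.

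**Figure D2:**
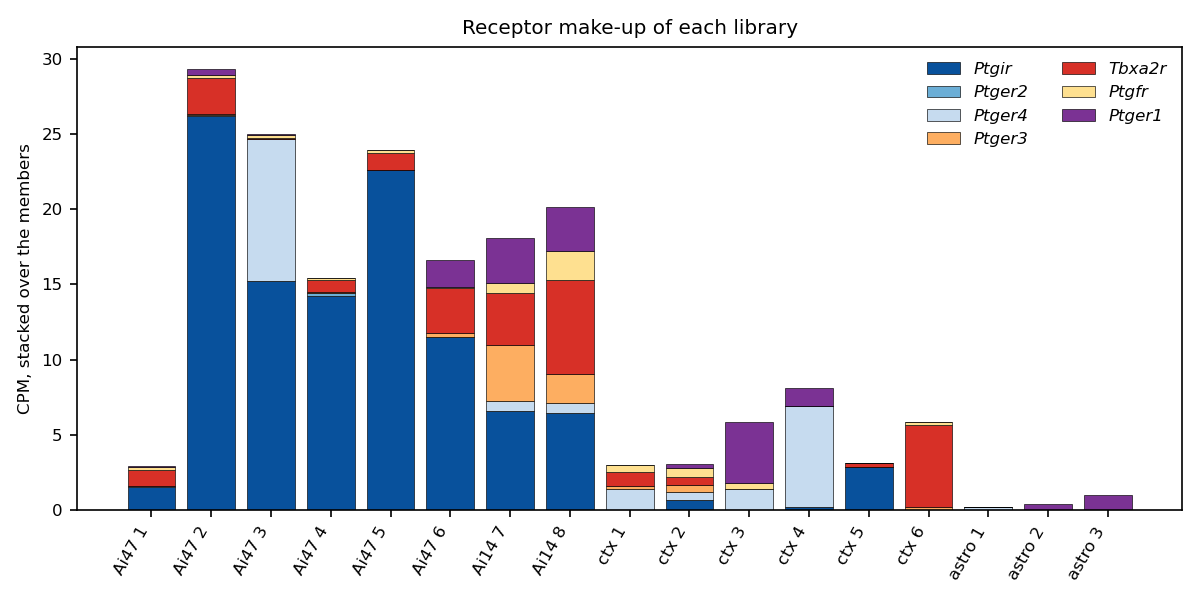
Stacked bars of the CPM of the 7 receptor genes in each library (Ai47 and Ai14, the aSMC groups; ctx, cortex; astro, astrocytes). Ptgir makes up most of 5 tall Ai47 bars and the short bar of replicate 1, the Ai14 bars are divided among 6 genes, and a different gene leads in different cortex libraries.

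Between the 2 aSMC groups, the direction of Ptgir and Ptger4 depended on the scaling. Ptgir was 2.34 times as abundant in Ai47 as in Ai14 aSMCs by the means (log2 fold change 1.23, SE 1.54, adjusted p = 0.609), and -0.99 with library totals alone, a scaling that moved the median gene by -1.47 on the log2 scale in this comparison. Ptger4 went from 1.28 (SE 2.36, adjusted p = 0.741) to -0.95 with that scaling and to -3.76 without Ai47 replicate 3. Tbxa2r, Ptgfr, Ptger1 and Ptger3 kept lower values in Ai47 aSMCs under every alternative tried, and of these Ptger3 alone passed the test in the fit of all 17 libraries with TMM scaling.

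Ai14 aSMCs were also compared with cortex, the tissue that holds the arterioles. None of the 6 members tested passed with edgeR, where 5.97% of 14927 genes did (3.97% higher and 2% lower in Ai14 aSMCs), 2 had an unadjusted p under 0.05 (Ptgir and Ptger3), and DESeq2 called none either. Ptgir had a log2 fold change of 3.49 (SE 1.34, adjusted p = 0.144) and a ratio of means of 10.6, or 38.9 without cortex replicate 5, with no overlap between the groups (exact permutation p = 0.0357, the smallest possible). It passed without cortex replicate 5 (adjusted p = 0.0343) and with library totals alone (adjusted p = 0.0451). Ptger1 (1.64, SE 1.75) and Ptger4 (-1.34, SE 2.37) had adjusted p of 0.678 and 0.830.

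The astrocyte libraries held few prostanoid receptor reads, 24 counts in all over the 7 genes, of which Ptger1 had 22 and Ptger4 had 2. Tbxa2r, Ptgir, Ptgfr, Ptger2 and Ptger3 had none. Against cortex, Tbxa2r was at least 15.2-fold lower (adjusted p = 0.0216), Ptgir at least 7.83-fold lower (adjusted p = 0.0336) and Ptgfr at least 3.53-fold lower (adjusted p = 0.0222), bounds from 3 counts over the group. The bounds fell to 4.21-fold for Tbxa2r without cortex replicate 6 and to 2.13-fold for Ptgir without cortex replicate 5, and without astrocyte replicate 3, the deepest of that group, to 7.35-fold, 3.79-fold and 1.71-fold for Tbxa2r, Ptgir and Ptgfr. These were 3 of 6 members tested, where 34.5% of 14927 genes passed, 14.6% higher and 19.8% lower in astrocytes.
For these genes 2 or 3 of the 6 cortex libraries had no count either, so the groups overlapped, and the exact permutation p was 0.274 for Tbxa2r, 0.393 for Ptgir and 0.155 for Ptgfr. The edgeR calls were also sensitive to single libraries. The adjusted p of Ptgir was 0.0668, 0.0622 and 0.0772 without astrocyte replicates 1, 2 and 3 and 0.0623 without cortex replicate 5, and those of Tbxa2r and Ptgfr were both 0.0525 without astrocyte replicate 3. With the 9 libraries of these groups alone no member passed the filter on low counts.
Ptger4 had 0.0355 times the cortex level in astrocytes (95% Clopper-Pearson interval 0.00421 to 0.134, for counting error only; adjusted p = 0.167), and Ptger1 had 0.484 times that level (adjusted p = 0.682).

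Against astrocytes, the aSMC groups shared 3 receptor genes that passed the test. Ptgir was at least 195-fold higher in Ai47 aSMCs (adjusted p = 0.00105) and at least 83.1-fold higher in Ai14 aSMCs (adjusted p = 0.00934). Tbxa2r was at least 18.2-fold higher in Ai47 (adjusted p = 0.0121) and at least 62.1-fold higher in Ai14 aSMCs (adjusted p = 0.017). Ptgfr was at least 1.86-fold higher in Ai47 (adjusted p = 0.0347) and at least 16.7-fold higher in Ai14 aSMCs (adjusted p = 0.0114). Both comparisons use the same 3 astrocyte libraries, so they are not independent of each other. Without astrocyte replicate 3 the bounds were 94.2-fold and 40.2-fold for Ptgir, 8.83-fold and 30.1-fold for Tbxa2r and 8.07-fold for Ptgfr in Ai14 aSMCs, while the level of Ptgfr in Ai47 aSMCs lay under the astrocyte limit. The Ptgfr bound in Ai14 aSMCs was 8.56-fold without Ai14 replicate 8.
Ptger3 passed in Ai14 aSMCs, at least 36.3-fold higher (17.6-fold without astrocyte replicate 3; adjusted p = 0.0209), and did not pass in Ai47 aSMCs, where 9 counts against 0 gave an adjusted p of 0.182. The members called were thus 3 of 6 in Ai47 aSMCs, where 49.9% of genes passed (26.1% higher and 23.8% lower), and 4 of 6 in Ai14 aSMCs, where 17.1% did (13.6% higher and 3.56% lower). Ptger3 and Ptgfr, however, passed the low-count filter of this fit only through the Ai14 libraries. No other library had more than 8 counts of either gene. Their calls as higher in Ai14 aSMCs are thus partly set by the filter, and the 4 of 6 cannot be weighed against the 17.1%. Ptger4 did not pass in either (adjusted p = 0.140 and 0.414), and Ptger1 had adjusted p of 0.944 and 0.404.
In the Ai47 comparison Ptgfr did not pass without astrocyte replicate 1 (adjusted p = 0.060) or replicate 3 (0.074), by DESeq2 (0.149) or with library totals alone (0.209), and Tbxa2r did not pass with the Ai47 columns as 1 library (0.0849), where Ptgir was the 1 member still called. In the Ai14 comparison Tbxa2r and Ptgfr did not pass without Ai14 replicate 8 (adjusted p = 0.065 and 0.0858), Ptger3 did not pass without replicate 7 or 8 (0.0835 and 0.0634) or by DESeq2 (0.064), and with only those 5 libraries in the fit all 4 had 0.0922, with 0 genes called by edgeR in total, 1978 higher and 858 lower at an unadjusted p under 0.05, and 3967 called by DESeq2 on all 17 libraries.

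**Figure D3:**
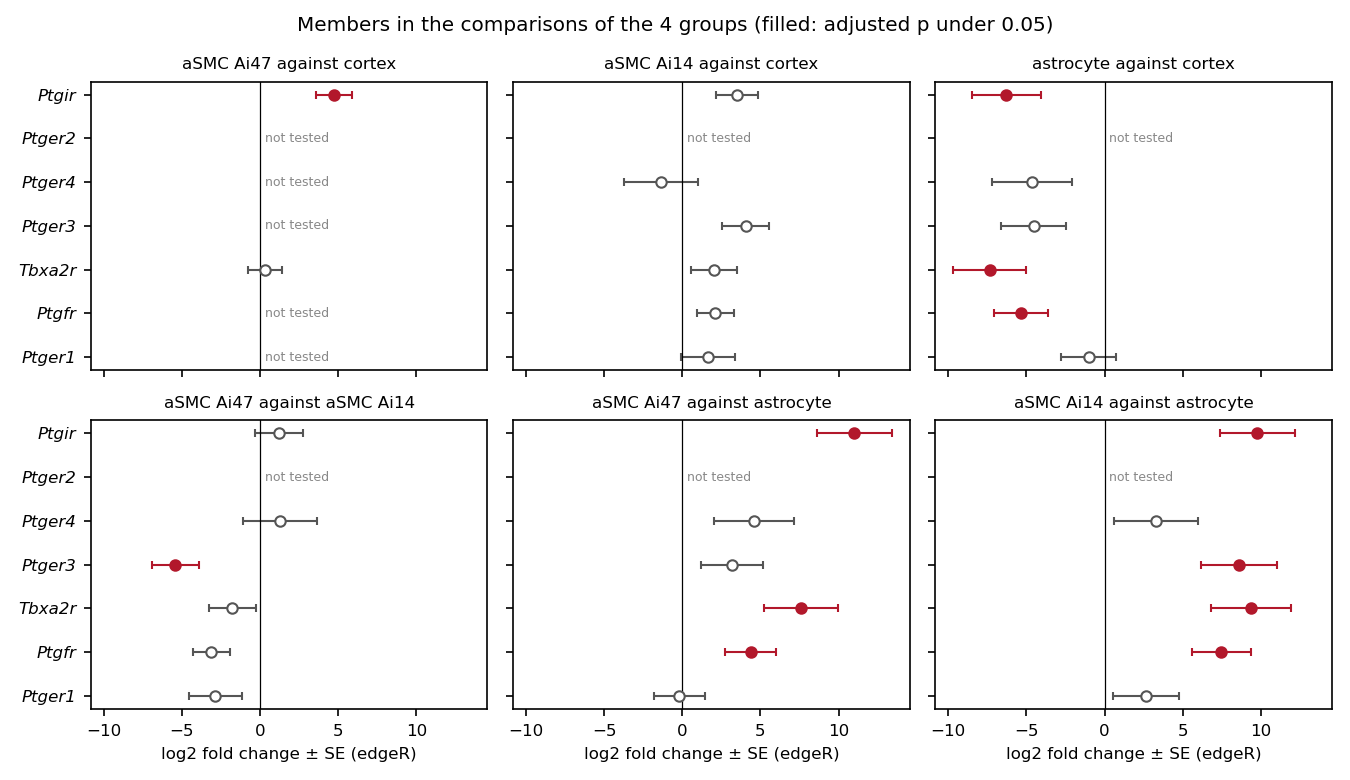
Log2 fold change of each member in the 6 comparisons of the 4 groups, as edgeR estimates with bars of 1 SE; filled points passed at an adjusted p under 0.05 and members that did not pass the filter on low counts are marked. Ptgir is filled in 4 of 6 panels; estimates against the astrocytes, where Ptgir, Tbxa2r, Ptgfr and Ptger3 had no count, depend on the prior count and are not bounds.

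The prostaglandin D receptors and a partner of FP, which lie outside the 7 genes, were also low in Ai47 aSMCs. Ptgdr, the gene of a prostaglandin D receptor, had 0.132 ± 0.0259 CPM (SD, n = 6) there and was tested in no comparison, as was Ptgdr2. Ptgfrn, which encodes a membrane protein known as a regulator of FP, had 0.154 ± 0.126 CPM in Ai47 aSMCs and 6.50 ± 3.74 CPM in cortex (log2 fold change -5.23, SE 0.764, adjusted p = 1.87e-05).

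Among enzymes and carriers of prostanoid synthesis and clearance, Ai47 aSMCs were higher than cortex for 3 of the 13 genes tested, lower for 6, and 4 did not pass, where 33.6% of all genes were higher and 25% lower, with a median log2 fold change of -1.46 against 0.32 over all genes tested. Ptges3, which encodes the cochaperone p23 and has PGE synthase activity, had 1252 ± 101 CPM in Ai47 aSMCs and 36.72 ± 15.99 CPM in cortex (log2 fold change 5.22, SE 0.312, adjusted p = 6.94e-10). Akr1b3, an aldo-keto reductase, had 18.9 ± 15.6 against 4.45 ± 2.19 CPM (2.22, SE 0.690, adjusted p = 0.0111). The third gene, Ptgis, the prostacyclin synthase, named after its values were seen, had 9.88 ± 11.1 against 1.45 ± 1.88 CPM (2.79, SE 0.944, adjusted p = 0.0182).
The genes of the enzyme that makes the IP ligand and of IP itself were thus both higher in Ai47 aSMCs than in cortex. For Ptgis the size of the difference rested much on 1 library, with 31.9 CPM, without which the Ai47 mean was 5.49 CPM. The groups also overlapped, with a lowest Ai47 value of 3.02 CPM and a highest cortex value of 5.14 CPM. Ptgis had 19.8 ± 1.45 CPM in Ai14 aSMCs, and like Ptgir it had no count in astrocytes. Lower in Ai47 aSMCs were Ptgs1, the constitutive cyclooxygenase, with 0.605 ± 0.370 against 28.2 ± 21.0 CPM (-5.47, SE 0.780, adjusted p = 1.43e-05), and Ptgds, the lipocalin-type prostaglandin D synthase, with 0.426 ± 0.0813 against 28.6 ± 16.5 CPM (-5.97, SE 0.598, adjusted p = 2.9e-07). The thromboxane synthase gene Tbxas1, a further member of the 6 and named after its values were seen, fell by 2.29 on the log2 scale (adjusted p = 0.0025).
In Ai14 aSMCs only Ptgs1 of the 15 genes tested passed against cortex (-5.23, SE 1.41, adjusted p = 0.0324), and none was higher. Astrocytes were higher than cortex for 1 gene, Ptges3, and lower for 8.

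Of the genes that act downstream of the Gs-coupled receptors, 7 of 16 tested were higher in Ai47 aSMCs than in cortex and 5 were lower, against 33.6% and 25% of all genes, with a median of 1.31 against 0.32. Prkar1a and Prkaca, a regulatory and a catalytic subunit of protein kinase A, had 1321 ± 284 and 846 ± 122 CPM in Ai47 aSMCs and 98.9 ± 17.8 and 24.1 ± 9.84 CPM in cortex (log2 fold changes 3.86, SE 0.261, and 5.24, SE 0.343). The adenylyl cyclases Adcy1 and Adcy2, both rich in neurons, had 0.104 ± 0.0779 and 0.347 ± 0.184 CPM against 185 ± 55.8 and 30.2 ± 16.9 CPM (-10.64, SE 0.577, and -6.31, SE 0.670). Adjusted p was 5.7e-07 or lower for these 4 genes. Gnas, the gene of the Gs alpha subunit, was also lower, by -2.91 (SE 0.267, adjusted p = 1.05e-07), with Adcy4 and Adcy8; these 3 were named after their values were seen.
In Ai14 aSMCs 4 of 18 were higher than cortex (Adcy6, Prkar1a, Prkar2a and Pde3a) and 1 was lower (Adcy1). The low level of Gnas was not shared by Ai14 aSMCs, which had 394 ± 1.33 CPM (SD, n = 2) against 388 ± 79.9 CPM in cortex. Gnas was lower in Ai47 than in Ai14 aSMCs by -3.02 (SE 0.470, edgeR adjusted p = 0.000113).

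On the Gq branch of TP, FP and EP1, 2 of 12 genes were higher in Ai47 aSMCs than in cortex and 5 were lower, against 33.6% and 25% of all genes, with a median of -1.21 against 0.32. The higher pair were the Gq-class alpha subunits Gna11, with 2762 ± 617 against 27.5 ± 10.4 CPM (6.79, SE 0.354), and Gnaq, with 416 ± 69.9 against 83.5 ± 20.1 CPM (2.40, SE 0.262). Prkcb, a protein kinase C, had 0.0189 ± 0.0208 against 75.4 ± 20.2 CPM (-11.27, SE 0.626), and Plcb2, a phospholipase C, 0.00676 ± 0.0166 against 2.33 ± 1.95 CPM (-7.25, SE 1.05, adjusted p = 1.71e-05). Plcb3, Itpr1 and Itpr3 were the other lower genes.
On the branch that leads from TP to RhoA and from EP3 to Gi, 3 of 11 were higher and 5 were lower, against the same 33.6% and 25%, with a median of -0.75 against 0.32. Rock1, a serine/threonine kinase gene, had 4024 ± 618 against 73.1 ± 31.9 CPM (5.86, SE 0.353), Rhoa 664 ± 82.0 against 72.7 ± 19.9 CPM (3.31, SE 0.252) and Arhgef1, an activator of RhoA, 86.5 ± 31.9 against 3.44 ± 3.07 CPM (4.73, SE 0.704, adjusted p = 2.25e-05). Gna12, Gnai1, Gnai2, Arhgef11 and Arhgef12 were lower.
Between the aSMC groups, 2 genes of each of the Gs, Gq and G12/13 and Gi branches were higher in Ai47 aSMCs and 4 were lower, of 18, 12 and 11 tested, where 9.55% of all genes were higher and 16% lower. Gna11 had 36.6 ± 2.13 CPM and Rock1 549.5 ± 14.3 CPM (SD, n = 2) in Ai14 aSMCs, and Ai47 aSMCs were higher by log2 fold changes of 6.24 (SE 0.965, adjusted p = 0.000106) and 2.87 (SE 0.740, adjusted p = 0.00733). The other gene higher on the Gq branch was Gnaq (3.58, SE 0.598, adjusted p = 0.000228). Gnaq had 34.8 ± 2.47 CPM in Ai14 aSMCs, below the cortex mean (-1.27, SE 0.512, adjusted p = 0.164). Lower in Ai47 aSMCs, and named after their values were seen, were Arhgef11 (-6.25, SE 1.31, adjusted p = 0.00169), Plcb3 (-3.62, SE 1.09, adjusted p = 0.0188) and Itpr1 (-2.39, SE 0.606, adjusted p = 0.00662). In Ai14 aSMCs against cortex, 1 gene of the Gq branch was higher (Plcb4) and 1 lower (Prkcb), and on the other branch Rock1 and Rock2 were higher and none was lower.

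**Figure D4:**
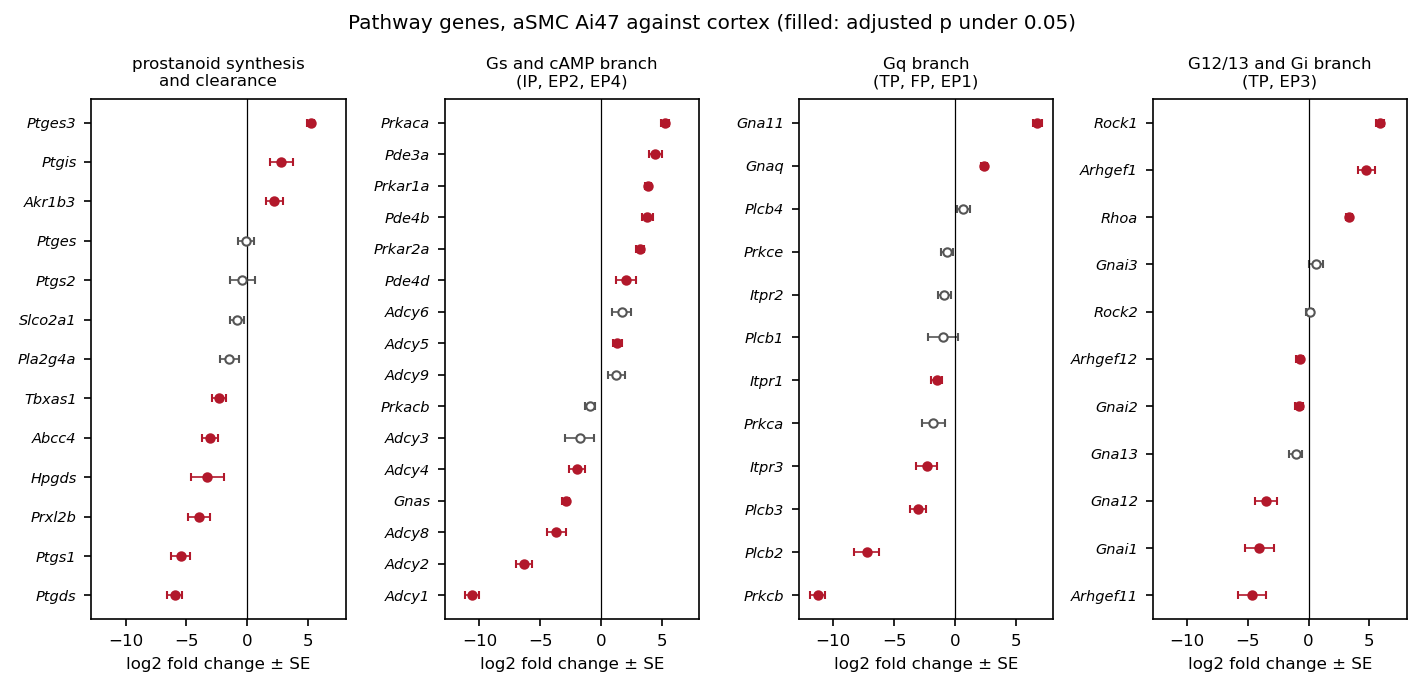
Log2 fold change with bars of 1 SE for the tested genes of 4 pathway lists in Ai47 aSMCs against cortex, from edgeR; filled points passed at an adjusted p under 0.05. Each list holds genes on both sides of 0, with Ptges3, Prkaca, Gna11 and Rock1 as its highest values.

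The genes whose levels most resembled each member's over the 17 libraries were found by Pearson's correlation of log2(CPM + 0.5), given as a description since the libraries of a group share their source and depth. For Ptgir they were Frk (r = 0.943), a tyrosine kinase gene, Usp28 (r = 0.926) and Aspn (r = 0.924), which encodes the matrix protein asporin. The genes found depended on the value added to CPM. With 0.1 and with 1 in place of 0.5, Frk alone of these 3 stayed in both lists for Ptgir. The lists of the other members changed as well. Like Ptgir, Aspn had its highest mean in Ai47 aSMCs (301 CPM), followed by Ai14 aSMCs (151 CPM), cortex (2.73 CPM) and astrocytes (0).
For Ptger3 they were Dspp (r = 0.972), Septin1 (r = 0.963) and the angiotensin receptor gene Agtr1b (r = 0.961), with means of 0.820, 2.26 and 4.24 CPM in Ai14 aSMCs and at most 0.0703 CPM elsewhere. Those of Tbxa2r were Ccdc69 (r = 0.845), Rerg (r = 0.838) and Foxc2 (r = 0.838), and those of Ptgfr were Tmem81 (r = 0.935), Gmppb (r = 0.930) and Tas1r3 (r = 0.923); all 6 had their highest mean in Ai14 aSMCs. For Ptger4 they were N4bp2l1 (r = 0.925), Camkk1 (r = 0.866) and Pir (r = 0.803), and for Ptger1 Zfp28 (r = 0.830), Adtrp (r = 0.813) and Olfr1254 (r = 0.789).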

How the data were processed

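Bulk RNA-seq of 17 mouse libraries was used. The values are the counts per gene symbol that the authors deposited, whole numbers with no normalization, for 21640 genes. The submitters' processing notes and labels name GRCm38, Salmon 1.4.0, Trim Galore 0.6.7 and NuGEN Ovation kits, whereas the study's methods name TruSeq, TopHat and htseq-count. Which of these made the table, its annotation and its strand setting were not stated.

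Coordinates and exon lengths came from GENCODE M21 (GRCm38) by symbol, which matched 97.42% of genes. Levels are CPM after TMM over all 17 libraries. Ai47 aSMCs and cortex were compared in a fit of their 12 libraries and the other groups in 1 fit of all 17, with edgeR 4.0.16 in R 4.3.3: filterByExpr (minimum count 10), TMM, the quasi-likelihood test and Benjamini-Hochberg adjusted p under 0.05 over all genes tested, after a test on simulated data. DESeq2 1.42.0 was an alternative. Single members were compared by exact two-sided permutation of log2(CPM + 0.5). The receptor genes, the pathway and marker lists and the tests were chosen with earlier results of these data known. Named were all 7 members, the 2 highest and the 2 most changed genes of each pathway list, and the 3 genes most like each member; Ttc33 and Gm15937 were named for their overlap with Ptger4, and 1 further result is not reported here. Intervals are at 95% and, like limits of 3 counts, cover counting error only, since reads are not independent molecules. Permutations used scipy 1.17.1 in Python 3.11.15, and plots matplotlib 3.10.9.

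Alternatives were other scalings and filters, DESeq2, other samples in the fit, a replicate block, the Ai47 columns as 1 library, and leaving out each library. Chosen after seeing the data were subtraction of the lowest Ai47 count, a robust spread, and leaving out cortex replicates 4, 5 and 6 together. No pairing by replicate number was seen: after removing group means, same-numbered libraries correlated at -0.0309 to 0.0213. Whether libraries of different groups came from the same mice cannot be told from these values.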

Additional observations from a re-analysis of the deposited data

Results flagged for a closer look

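In 8 of the 13 groups of 4 or more libraries in which a member had counts, 1 library lay further from the rest than Dixon's test allows, always as the highest value. Chance alone flags about 1 in 20 groups, and sparse counts with many libraries at 0 do not meet the assumptions of that test. In cortex these were replicate 6 for Tbxa2r (5.48 CPM), replicate 5 for Ptgir (2.84 CPM), replicate 3 for Ptger1 (4.12 CPM) and replicate 4 for Ptger4 (6.72 CPM), so a different library stood out for each gene. In Ai47 aSMCs they were replicate 3 for Ptger4 (9.45 CPM), where the median of the others was 0.0368 CPM, replicate 6 for Ptger1 (1.82 CPM) and for Ptger3 (0.255 CPM), and replicate 4 for Ptger2 (0.147 CPM). The markers that were also high in some of these cortex libraries are given with each gene; their part was not tested.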

How the results depend on the processing

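Of the alternative log2 fold changes for single members, 411 kept direction and side of the threshold, 28 no longer passed, 6 newly passed and 15 changed sign. Ptgir in Ai47 aSMCs against cortex passed in 22 of 23 settings, with log2 fold changes of 3.68 to 6.53 and adjusted p up to 0.0695. With the Ai47 columns as 1 library, 4030 genes and 0 members were called against cortex, 405 genes and 0 members against Ai14 aSMCs, and 2540 genes with 1 member higher against astrocytes. Subtracting the lowest Ai47 count left 2582 genes against cortex. Without cortex replicates 4 to 6, 1 member (Ptgfr) was called lower in Ai47 aSMCs, and Ai14 aSMCs against cortex had 385 genes.

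With library totals alone, Tbxa2r in Ai47 aSMCs against cortex changed to -0.80 (log2; -0.0858 in the permutation test's difference), Ptger1 in astrocytes against cortex to 0.0688, and Ptgir and Ptger4 in Ai47 against Ai14 aSMCs to -0.99 and -0.95; 1 member (Ptgir) was then higher in Ai14 aSMCs than in cortex, and 7138 genes with 4 members lower were called in Ai47 against Ai14 aSMCs. That scaling moved the median gene by -1.47 to 0.841. Size factors by relative log expression, computed in edgeR, moved it by -0.378 to 0.237. DESeq2 called 2104 genes in Ai14 aSMCs against cortex, 3967 against astrocytes, and 0 members lower in Ai47 than in Ai14 aSMCs. With only the groups compared in the fit, 2476 genes were called in Ai14 aSMCs against cortex, 2 members were lower in Ai47 than in Ai14 aSMCs, 0 members were lower in astrocytes than in cortex, and 0 genes and 0 members were called in Ai14 aSMCs against astrocytes. The sign of Ptger1 in Ai47 aSMCs against astrocytes, near 0, turned to 0.0041 with no filter and 0.0931 with the Ai47 columns as 1 library.

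By their labels the libraries share only replicate numbers. As a replicate block these gave 1066 genes and 0 members lower in astrocytes against cortex, 2450 genes and 1 member higher in Ai47 aSMCs against astrocytes, and Ptgir at 6.03 (adjusted p = 0.000392) in Ai47 aSMCs against cortex.

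Leaving out each library in turn gave 222 to 712 genes and 0 to 1 member higher in Ai14 aSMCs against cortex, 0 to 3 members lower in astrocytes against cortex, 1430 to 3345 genes and 0 to 1 member lower in Ai47 against Ai14 aSMCs, and 1157 to 3408 genes with 1 to 4 members higher in Ai14 aSMCs against astrocytes. Ptger1 ranged from -2.35 to 0.476 in astrocytes against cortex and from -1.58 to 1.22 in Ai47 aSMCs against astrocytes. Ptger4 ranged from -3.76 to 2.10 (Ai47 against Ai14 aSMCs) and from -0.55 to 8.02 (Ai47 aSMCs against astrocytes). The causes of these changes were not tested. With 5397905 to 7288036 counts in a cortex library and 4537137 to 7390630 in an astrocyte library, a gene with no count may still have up to 0.0689 and 0.0782 CPM over these groups. No fit with a replicate block was possible for Ai14 aSMCs, which share no replicate number with the other groups.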
